A study of Mus musculus with 8 samples.

Results

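MAP kinase phosphatases and the Sprouty and Spred proteins are inhibitors that MAP kinase signalling induces against itself, and 10 of their genes were followed here in mouse paw skin after an injection of PACAP. The genes were Dusp1, Dusp2, Dusp4, Dusp5, Dusp6, Dusp8, Dusp10, Spry2, Spry4 and Spred1. They were taken by gene name and not by a measured value. They were carried by 14 non-control probes, with 2 probes for Dusp1, 2 for Dusp8 and 3 for Spred1, out of 39429 probes for 29608 gene names.

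MAP kinases (ERK, JNK and p38) are switched on by phosphorylation of a threonine and a tyrosine in their activation loop. The dual-specificity phosphatases (Dusp genes) remove both phosphates, and several of them are transcribed within minutes of a stimulus, so that the signal shortens itself. Sprouty and Spred proteins act further up, where they hold back the activation of RAS and RAF downstream of growth factor receptors. PACAP is a peptide that raises cyclic AMP through its receptor PAC1R, and both cyclic AMP and ERK signalling are known to induce genes of this family in many cell types. The RefSeq record of Dusp2 carries PAC1 as an older name, which is not the PACAP receptor.

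Skin of the paw was taken 30 or 60 min after an intradermal injection of 5 µL of PACAP (1e-07 mol/L) or of vehicle, which was saline with 0.1% BSA. The mice were 9 to 10 weeks old, and were WT mice or PAC1R KO mice (Adcyap1r1 -/-), both given as C57BL/6J. There were therefore 8 RNA samples, 1 for each genotype, treatment and time, and they were hybridised as 4 pairs of PACAP and vehicle. Each pair lay on 2 Agilent two-colour arrays with the dyes swapped, which were counted as 1 replicate. The comparisons of PACAP with vehicle are written WT30, KO30, WT60 and KO60, after the genotype and the minutes from the injection. All mice of the RNA samples had been anaesthetised, and which mice entered each RNA, or whether RNA was pooled, is not given in the sources used here. The receptor was deleted in the whole animal and not in a cell type of the skin.

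Precision is limited by how few arrays there were, and no comparison had a second pair of RNA samples. The WT arrays lay on 1 slide and the KO arrays on another, so that slide and genotype cannot be told apart. The share of spots above background was 78.6% to 94.5% by array for Cy5 and 54.0% to 65.3% for Cy3. Over all probes the turned ratios of the 2 arrays of a pair correlated with r between -0.54 and -0.31. Over the 20278 probes above background in both channels of every array, r lay between 0.19 and 0.65. The direction of every ratio was taken from the dyes that the labels give. The probe for Adcyap1r1, the gene that encodes PAC1R, had vehicle log2 levels of 8.28 for WT30, 7.98 for KO30, 8.67 for WT60 and 8.56 for KO60. With PACAP it stood at 8.27, 7.91, 8.76 and 8.42 in the same order, so KO was the lower at each time with either treatment, while the levels of WT30 lay below those of KO60. The position of the probe relative to the deleted part is unknown, so these levels do not check the genotype, and KO stands below for the samples so labelled. Of the markers of skin, 8 of 8 keratinocyte genes and 6 of 7 eccrine gland genes were above background on both arrays of at least 1 sample, Cftr being the exception.

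None of the 14 probes changed past the thresholds of the study in any comparison of PACAP with vehicle. A probe was called where its arrays averaged at least 2.0-fold or at most 0.5-fold, agreed in direction and each had a Feature Extraction p under 0.01. That p is the scanner software's and describes 1 array, not animals. Called were 0 of 14 probes in WT30, where 0.35% of all probes were called, and 0 of 14 in KO30, where 0.708% were. In WT60 they were 0 of 14 against 0.692% of all probes, and in KO60 0 of 14 against 0.292%. At 1.5-fold the count was also 0 in each comparison, with 1.39%, 2.71%, 0.913% and 0.571% of all probes called in WT30, KO30, WT60 and KO60. With backgrounds this low, a count of 0 in 14 does not set the genes apart from other genes.

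The 14 mean ratios lay between -0.66 and 0.54 on the log2 scale over the 4 comparisons. Their median was 0.10 in WT30, with 9 of 14 probes above 0, and -0.14 in KO30, with 3 above 0. It was 0.01 in WT60, with 7 above 0, and -0.08 in KO60, with 5 above 0. The median over all 39429 probes was 0 in each comparison, with 33.6%, 42.7%, 38.5% and 44.5% of probes above 0 in the same order, since the software sets the ratio of many dim spots to exactly 0. Both arrays of a pair gave the same direction for 5 of 14 probes in WT30 (42.4% of all probes), 10 in KO30 (48.4%), 6 in WT60 (34.2%) and 8 in KO60 (35.0%).

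**Figure D1:**
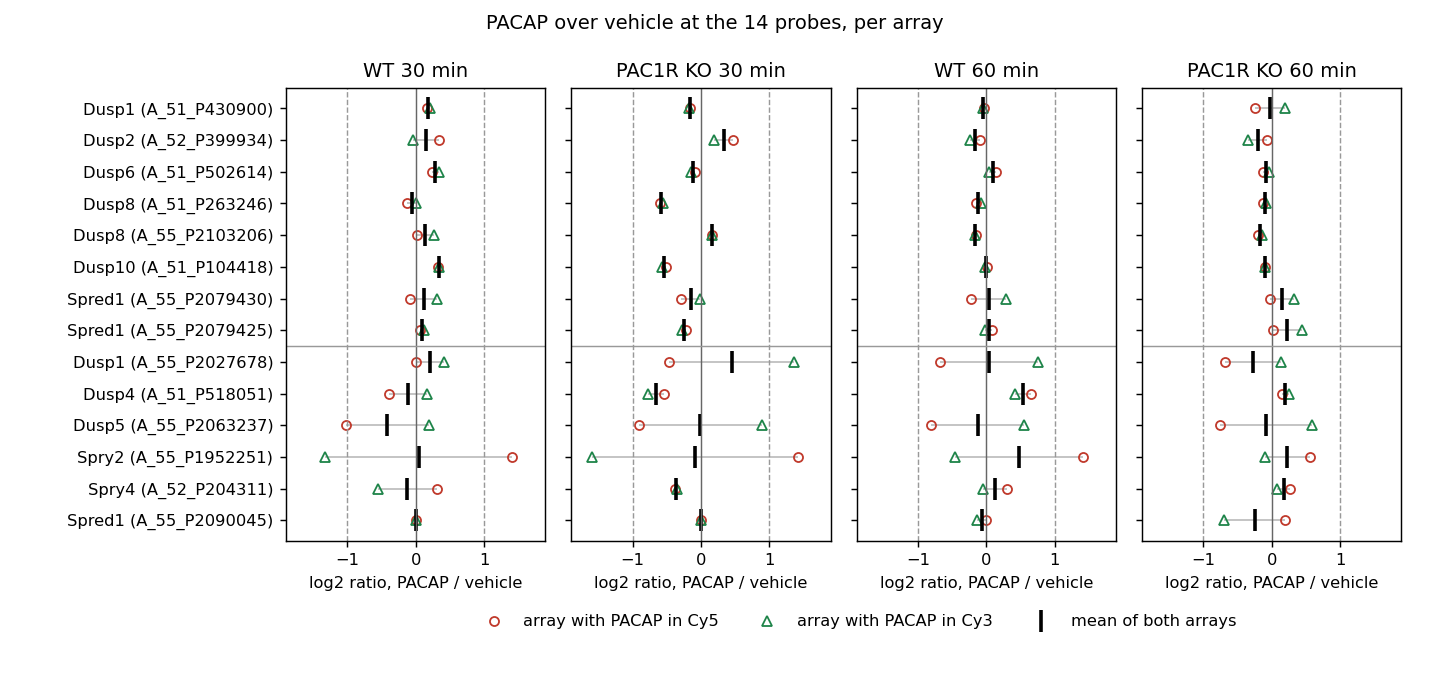
Log2 ratio of PACAP over vehicle (x axis) at the 14 probes (y axis) in the 4 comparisons. Circles are the array with PACAP in Cy5, triangles the array with PACAP in Cy3, black bars their mean, and dashed lines mark 2.0-fold and 0.5-fold. The 8 probes above the grey line were well above background in all 8 RNA samples, and no mean reaches a dashed line.

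Dusp1, the immediate early phosphatase that acts on p38, JNK and ERK in the nucleus, was bright and hardly moved. Its probe A_51_P430900 gave PACAP over vehicle of 1.13-fold and 1.15-fold on the 2 arrays of WT30 and of 0.898-fold and 0.888-fold in KO30. The arrays gave 0.977-fold and 0.964-fold in WT60, and 0.845-fold and 1.14-fold in KO60. The arrays agreed to within 0.02 (SD of the log2 ratio) in the first 3 comparisons and disagreed in sign in KO60 (SD 0.30). Feature Extraction p was 0.235 or more on every array. The file places this probe at chr17:26642526-26642536 (mm9), a listed span of 11 bases. The other Dusp1 probe, A_55_P2027678, lies 48663 bases away at chr17:26691199-26691258, while the RefSeq gene (GRCm38.p6) is 2882 bases long, so it was not read as a measure of Dusp1.

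The promoter of Dusp1 carries a full cyclic AMP response element (CRE), the site bound by CREB, and Dusp8 carries 2. Windows of 250 bases before to 50 bases after the RefSeq start (GRCm38.p6) were found for 8 of the 10 genes, and both strands were searched for the CRE core TGACG, the full CRE palindrome, the AP-1 site TGANTCA, the ETS site CCGGAA and the CArG box. A full CRE holds a core on each strand and so counts as 2 of them. Of 32851 promoter windows of the same length, 20.8% held a CRE core, 1.79% a full CRE, 7.81% an AP-1 site, 14.9% an ETS site and 1.63% a CArG box. The windows of Dusp1 (chr17:26508423-26508722, minus strand), Dusp8 (chr7:142095235-142095534, minus strand) and Dusp2 (chr2:127335909-127336208, plus strand) are shown 5′ to 3′, since Dusp1 and Dusp8 hold the full CREs and Dusp2 has the widest range of levels below. Capitals mark CRE cores and full CREs.
Dusp1: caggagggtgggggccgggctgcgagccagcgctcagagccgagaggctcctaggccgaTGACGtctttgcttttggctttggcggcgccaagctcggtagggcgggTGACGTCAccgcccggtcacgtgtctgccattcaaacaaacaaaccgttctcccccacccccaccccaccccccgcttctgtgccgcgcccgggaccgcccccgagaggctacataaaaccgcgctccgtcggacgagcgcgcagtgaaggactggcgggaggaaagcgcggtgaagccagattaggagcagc
Dusp8: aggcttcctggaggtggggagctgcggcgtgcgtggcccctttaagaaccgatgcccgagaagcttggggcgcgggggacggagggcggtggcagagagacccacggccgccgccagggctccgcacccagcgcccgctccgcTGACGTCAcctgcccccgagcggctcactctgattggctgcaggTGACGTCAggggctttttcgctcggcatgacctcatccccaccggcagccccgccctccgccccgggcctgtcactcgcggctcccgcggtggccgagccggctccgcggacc
Dusp2: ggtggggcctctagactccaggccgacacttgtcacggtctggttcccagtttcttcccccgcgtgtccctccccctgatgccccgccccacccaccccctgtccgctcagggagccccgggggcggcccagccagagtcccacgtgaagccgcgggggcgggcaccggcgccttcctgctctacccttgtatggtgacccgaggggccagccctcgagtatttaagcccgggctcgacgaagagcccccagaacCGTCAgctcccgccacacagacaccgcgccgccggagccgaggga
The full CRE of Dusp1 begins 143 bases before the start and a further core 191 before it, and those of Dusp8 begin 107 and 63 bases before the start. Dusp2 has 1 core, which lies after the start. Dusp5 has 1 core and 2 CArG boxes, Spry2 has 1 ETS site, and the windows of Dusp6, Dusp10 and Spred1 hold none of these letters. A match describes the letters of the window only, and no binding was measured.

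Dusp2, a nuclear phosphatase best known from activated lymphoid and myeloid cells, differed more between times than between treatments. Its PACAP over vehicle ratios were 1.27-fold and 0.969-fold on the arrays of WT30, and 1.39-fold and 1.14-fold in KO30. They were 0.935-fold and 0.846-fold in WT60, and 0.954-fold and 0.786-fold in KO60. The mean was thus above 1 at 30 min and below 1 at 60 min in both genotypes, as at 2.32% of the 30351 probes tested with limma, but the largest step (1.26-fold in KO30) had Feature Extraction p of 0.0241 and 0.345. Its probe A_52_P399934 lies at chr2:127163930-127163989 (mm9).

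Dusp6, the cytoplasmic phosphatase that is specific for ERK and a widely used readout of ERK activity, moved little but in the same direction on every array of a genotype. Its arrays gave 1.18-fold and 1.26-fold in WT30 and 1.11-fold and 1.03-fold in WT60. They gave 0.937-fold and 0.904-fold in KO30 and 0.914-fold and 0.972-fold in KO60. All 4 WT values were above 1 and all 4 KO values below it, and the smallest Feature Extraction p was 0.103. Means above 0 in WT and below 0 in KO at both times were found at 5.3% of the 30351 probes tested. In limma the PACAP effect in KO minus that in WT was -0.29 on the log2 scale (SE 0.20, 95% interval -0.77 to 0.19, adjusted p = 0.84), which is within the spread of the comparisons. The probe A_51_P502614 lies at chr10:98729985-98730044 (mm9).

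Dusp8 and Dusp10, the phosphatases that prefer JNK and p38 over ERK, held the largest ratios among the probes above background in all samples, both in KO30. The Dusp10 probe A_51_P104418 (chr1:185898608-185898667, mm9) was 1.26-fold on both arrays of WT30 and 0.7-fold and 0.675-fold in KO30. It was 1-fold and 0.981-fold in WT60 and 0.936-fold and 0.934-fold in KO60. The 30 min values of the genotypes lay on opposite sides of 1, and Feature Extraction p in KO30 was 0.0146 and 0.0075, so that 1 of its arrays missed 0.01. The limma estimate of the PACAP effect in KO minus WT was -0.48 (SE 0.25, 95% interval -1.09 to 0.12, adjusted p = 0.84). It was -0.26 without KO30, -0.31 without WT30 and -0.70 without KO60 (adjusted p = 0.295 or more in limma).

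The Dusp8 probe A_51_P263246 (chr7:149267534-149267593, mm9) was 0.919-fold and 1-fold in WT30 and 0.657-fold and 0.677-fold in KO30, with Feature Extraction p of 0.00515 and 0.00919. The WT60 arrays gave 0.898-fold and 0.948-fold, and the KO60 arrays 0.919-fold and 0.947-fold. It was the 1 member probe with a p under 0.01 on both arrays at any fold, in KO30, where 1.27% of all probes were lower by that rule, which was chosen after the values were seen. After normexp background correction and loess the mean in KO30 moved from -0.58 to -0.37 on the log2 scale. The other Dusp8 probe, A_55_P2103206 (chr7:149265961-149266020), gave 1.12-fold on both arrays of that comparison, so the probes of this gene disagreed. The limma estimate of the PACAP effect in KO minus WT was -0.25 at A_51_P263246 (SE 0.23, adjusted p = 0.84) and 0.01 at A_55_P2103206 (SE 0.23, adjusted p = 0.99). Without KO30 the value at A_51_P263246 was -0.01, and without KO60 it was -0.50 (adjusted p = 0.30 in limma).

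Markers of several cell types moved in the same comparisons as Dusp8 and Dusp10. In KO30 0 of 8 keratinocyte genes were above 0 (median log2 ratio -0.72, with Krt1 and Krt10 called lower), 0 of 6 fibroblast genes (median -0.57) and 1 of 12 skeletal muscle genes (median -0.58, with Acta1 called lower). The summed keratinocyte level fell from 338275 intensity units with vehicle to 195072 with PACAP. Hair shaft and inner root sheath genes were higher there, with 11 of 12 called (median 1.38), and 4 of 12 neutrophil genes were called higher (median 0.77). In WT30 12 of 12 skeletal muscle genes were above 0 (median 0.75), 6 of 6 fibroblast genes (median 0.45) and 12 of 12 hair shaft and inner root sheath genes (median 0.55, with Krt28, Krt35 and Tchh called higher). Of the genes of these 5 lists, Ngp of the neutrophil list was the 1 that was above background on both arrays in 0 of 8 samples. The part of these shifts in the ratios of the 10 genes was not tested, and in bulk skin fewer cells of a type and less RNA per cell cannot be told apart.

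Spred1, which brings the RAS inhibitor neurofibromin to the membrane, stayed near 1. Its probe A_55_P2079430 (chr2:117005906-117005965, mm9) ran from 0.901-fold in KO30 to 1.11-fold in KO60 as means of the arrays. The array with PACAP in Cy3 was higher than the array with PACAP in Cy5 in all 4 comparisons of that probe. The probe A_55_P2079425 (chr2:117004952-117005011) ran from 0.844-fold in KO30 to 1.17-fold in KO60. Both probes were lowest in KO30 and highest in KO60, with log2 SDs between arrays of up to 0.36 and 0.30. The limma estimates over the 4 comparisons were 0.04 (SE 0.09) and 0.03 (SE 0.10), both with an adjusted p of 1.

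Dusp4, Dusp5, Spry2 and Spry4 were dim, and no change passed at them. Their probes, with the second Dusp1 probe and the third Spred1 probe, were the 6 member probes that were not well above background in all 8 RNA samples. The file lists the third Spred1 probe, A_55_P2090045, under another transcript than the other probes of the gene. It was above background on both arrays in 0 of 8 samples, and no fold was read from it. The dye gap, which is the log2 difference between dye-swapped arrays divided by 2 and averaged over the comparisons, ran from 0.13 to 1.04 at these 6 probes and from 0.01 to 0.19 at the other 8. Its median over all probes was 0.24 for the 19151 probes that were not always above background and 0.08 for the 20278 that were.

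Spry2, which restrains RAS and ERK activation by receptor tyrosine kinases, showed the widest split. With PACAP in Cy5 its probe A_55_P1952251 read 2.65-fold, 2.69-fold, 2.67-fold and 1.48-fold in WT30, KO30, WT60 and KO60. With PACAP in Cy3 it read 0.4-fold, 0.33-fold, 0.724-fold and 0.93-fold. The sign followed the dye in all 4 comparisons, and single arrays would have given calls: with 1 array alone, Spry2 was called higher in KO30 and in WT60, where 2.23% and 2.12% of all probes were called in either direction from that array. The means of the swapped arrays were 1.03-fold, 0.942-fold, 1.39-fold and 1.17-fold, and none of them exceeds the difference between its arrays.

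Dusp5, a nuclear phosphatase specific for ERK, split the opposite way. With PACAP in Cy5 it was 0.493-fold to 0.592-fold, and with PACAP in Cy3 it was 1.14-fold to 1.85-fold, so the means of 0.749-fold to 0.994-fold rest on arrays that disagree in all 4 comparisons. It was above background on both arrays in 7 of 8 samples, with a dye gap of 0.71. Dusp4, a nuclear phosphatase of ERK and JNK, agreed between arrays in 3 comparisons. It was 0.634-fold in KO30, 1.45-fold in WT60 and 1.15-fold in KO60, with Feature Extraction p of 0.15 or more on those arrays. Spry4, a second inhibitor upstream of RAF, ran from 0.774-fold in KO30 to 1.13-fold in KO60 and was above background on both arrays in 1 of 8 samples.

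For Dusp4 limma gave a PACAP effect at 60 min minus that at 30 min of 0.75 (SE 0.28, 95% interval 0.07 to 1.44, adjusted p = 1), where 1.59% of probes had an unadjusted p under 0.05. That value fell to 0.15 after normexp background correction and loess. Both Dusp4 and Spry4 were below 0 at 30 min and above 0 at 60 min in both genotypes, a pattern of 4.61% of probes. Of the 12 member probes tested Dusp4 was the 1 with an unadjusted p under 0.05.

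**Figure D2:**
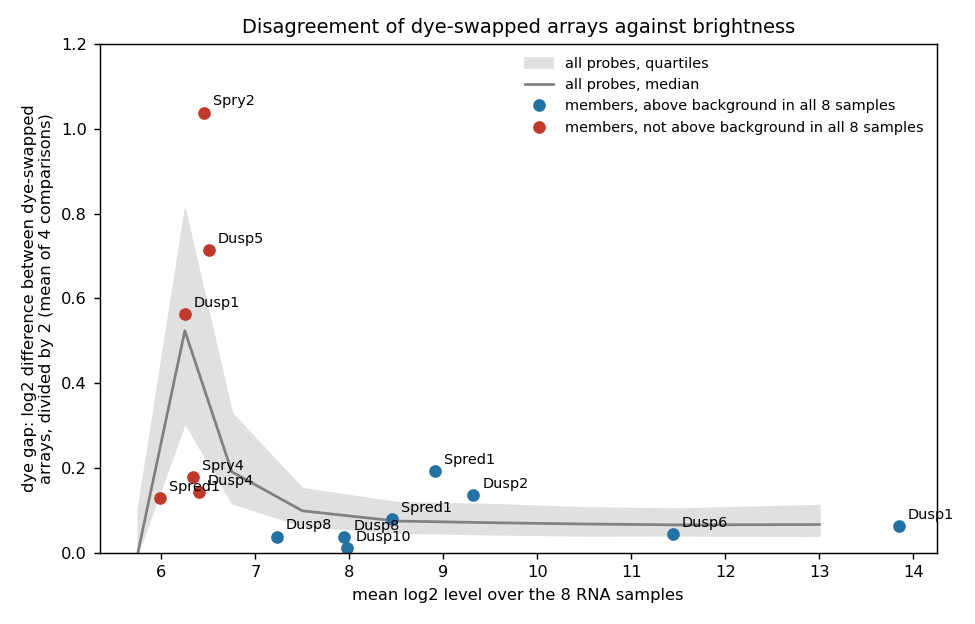
Dye gap, the log2 difference between the dye-swapped arrays of a pair divided by 2 and averaged over the 4 comparisons (y axis), against the mean log2 level over the 8 RNA samples (x axis). Points are the 14 member probes and the grey line and band are the median and quartiles of all probes in level bins. Spry2 at 1.04 and Dusp5 at 0.71 stand highest, and the probes above background in all samples lie at 0.19 or below.

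The shared PACAP effect and the interactions gave no call. limma on the 4 mean ratios, with 30351 probes tested, found 0 probes with an adjusted p under 0.05 for the mean of the comparisons (678 at an unadjusted p under 0.05, 2.23%), and 0 of the 12 member probes at either level. The PACAP effect in KO minus WT gave 0 (972 unadjusted, 3.2%), and 0 of the 12 member probes at either level. The PACAP effect at 60 min minus 30 min gave 0 (483 unadjusted, 1.59%). The mean over the comparisons was -0.01 for Dusp1 (SE 0.09, 95% interval -0.24 to 0.22), 0.04 for Dusp6 (SE 0.10, 95% interval -0.20 to 0.29) and -0.21 for Dusp8 at A_51_P263246 (SE 0.12, 95% interval -0.50 to 0.07), each with an adjusted p of 1 in limma. These intervals span the genotypes and times and not animals of 1 group. The intervals of Dusp1 and Dusp6 do not reach 1, the log2 value of a 2.0-fold rise. This concerns the mean of the 4 comparisons only. A rise in 1 of them would be averaged with the others, so the intervals do not bound the ratio of a single comparison.

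Dusp2 was higher at 60 min than at 30 min in every kind of sample, and this was the widest difference among the 14 probes. Its log2 level in the vehicle samples was 8.77 for WT30, 8.52 for KO30, 9.77 for WT60 and 10.11 for KO60. In the PACAP samples it was 8.94 for WT30, 8.84 for KO30, 9.63 for WT60 and 9.98 for KO60. The 4 samples of 30 min and the 4 of 60 min did not overlap, as was the case, with 60 min higher, for 6.68% of the 20278 probes above background in all samples. The level at 60 min over that at 30 min was 2.00-fold with vehicle in WT, 3.01-fold with vehicle in KO, 1.62-fold with PACAP in WT and 2.21-fold with PACAP in KO.

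In the vehicle samples limma gave 1.29 for Dusp2 at 60 min minus 30 min (SE 0.16, 95% interval 0.89 to 1.70, adjusted p = 0.19), so the call was not made. Over all 24903 probes 0 had an adjusted p under 0.05, and 4391 (17.6%) an unadjusted p under 0.05. Without the WT vehicle sample of 60 min the value was 1.46 with an adjusted p of 0.015 in limma, and 222 probes passed, with the lone 60 min sample assumed to vary like the others. The same fit on the 4 PACAP samples, added after the values were seen, gave 0.92 (SE 0.18, adjusted p = 0.56). Time of sampling and the animals sampled cannot be told apart, since each time had its own RNA samples.

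Some marker genes of other cell types were also higher at 60 min in the vehicle samples. Of 12 neutrophil genes 8, Ngp among them, were higher in both vehicle samples of 60 min than in both of 30 min. So were 4 of 6 cartilage and bone genes, 5 of 12 skeletal muscle genes, 3 of 9 hepatocyte genes and, as background, 20.5% of the 20278 probes above background in all samples. The 3 hepatocyte genes were Apoa1, Fgg and Ahsg, of which only Ahsg was above background in all 8 samples. The neutrophil, cartilage and bone, and hepatocyte lists each had 1 gene lower in both vehicle samples of 60 min. Hair shaft and inner root sheath genes (3 of 12), leukocyte genes (1 of 5) and endothelial genes (1 of 5, with 2 lower) were near that background. The summed neutrophil level with vehicle was 12787 intensity units for WT30, 13220 for KO30, 19085 for WT60 and 15191 for KO60. With PACAP it was 19497, 33498, 26720 and 43758 in the same order. This sum mostly follows S100a8, S100a9 and Csf3r, at log2 levels of 11.01, 12.06 and 12.19 in the WT30 vehicle sample. Ly6g came next there, at 9.62. In KO60 the called genes of the list were S100a8 and S100a9. The median log2 ratio of the 12 neutrophil genes was -0.15 in WT60, with 4 above 0, and 0.19 in KO60, with 9 above 0. The summed hair level with vehicle was 9128 for WT30, 5324 for KO30, 7272 for WT60 and 49260 for KO60. With PACAP it was 14132, 13778, 34012 and 35379 in the same order. The summed leukocyte level was between 4732 and 6594 in all 8 samples and its 30 min and 60 min ranges overlapped. Over all 8 samples the times did not overlap, with 60 min higher, for 2 of 12 neutrophil, 3 of 6 cartilage and bone and 1 of 9 hepatocyte genes and for 0 genes of the other 7 cell type lists, beside the 6.68% of probes given above. The 2 neutrophil genes were Ngp and Mpo and the hepatocyte gene was Apoa1. All of them were dim, while that share is over probes above background in all samples. Keratinocyte genes went the other way between the vehicle samples, with 7 of 8 lower at 60 min beside 29.0% of those probes. Ngp and Apoa1 were above background on both arrays in 0 of 8 samples and Mpo in 5 of 8. The part of these cell types in the Dusp2 level was not tested.

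Among the 8 member probes above background in all samples, Dusp8 at A_55_P2103206 was the other one with no overlap between times. It lay at 7.06, 7.02, 7.13 and 7.11 at 30 min (WT vehicle, KO vehicle, WT PACAP, KO PACAP) and at 7.26, 7.56, 7.20 and 7.47 at 60 min. The vehicle difference was 0.37 (SE 0.14, 95% interval 0.03 to 0.71, adjusted p = 0.26 in limma). Dusp8 at A_51_P263246 instead was lower in KO than in WT, at 7.60 and 8.03 with vehicle and 7.23 and 8.02 with PACAP in KO (30 and 60 min), against 8.21, 8.18, 8.19 and 8.12 in WT. Levels did not overlap with KO lower at 9.01% of probes. The vehicle difference of KO minus WT was -0.38 (SE 0.18, 95% interval -0.85 to 0.09, adjusted p = 0.89 in limma), with the KO samples of 30 min lowest.

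Dusp1, Dusp6 and Dusp10 had overlapping levels of 30 and 60 min over the 8 samples. Dusp1 at A_51_P430900 had vehicle levels of 13.82 for WT30, 14.01 for KO30, 14.11 for WT60 and 13.47 for KO60. With PACAP it stood at 13.97, 13.92, 14.15 and 13.31 in the same order, so both KO60 samples were the lowest. Dusp6 was between 11.34 and 11.50 in the vehicle samples and between 11.25 and 11.75 in the PACAP samples, highest in WT30. Dusp10 was lowest in the WT vehicle sample of 30 min, at 7.63, and highest in the KO vehicle sample of 30 min, at 8.24, while the PACAP samples of 30 min lay at 7.86 and 7.85. In limma the vehicle level of Dusp10 in KO minus WT was 0.36 (SE 0.17, adjusted p = 0.89). Over all 24903 probes 0 had an adjusted p under 0.05 for that contrast and 1259 (5.06%) an unadjusted p under 0.05, with 0 of the 12 member probes at either level.

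**Figure D3:**
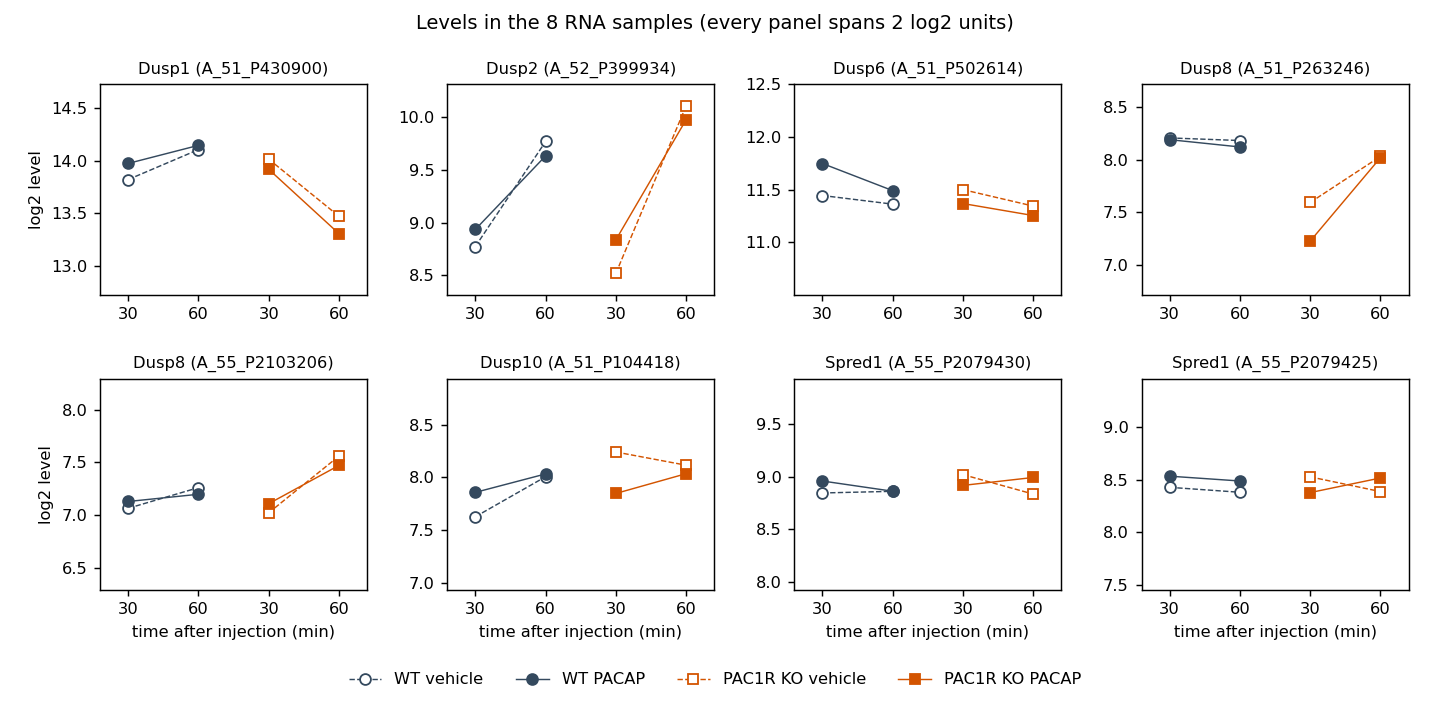
Log2 level (y axis, every panel spanning 2 log2 units) of the 8 member probes above background in all samples, by minutes after the injection (x axis). Open symbols are vehicle and filled symbols PACAP, circles WT and squares PAC1R KO, and each point is 1 RNA sample over 2 arrays. Dusp2 is higher at 60 min in all 4 pairs of points, while the other panels move by less in the same genotype and treatment. Across them, Dusp8 at A_51_P263246 rises by 0.79 with PACAP in KO and Dusp2 by 0.70 with PACAP in WT.

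**Figure D4:**
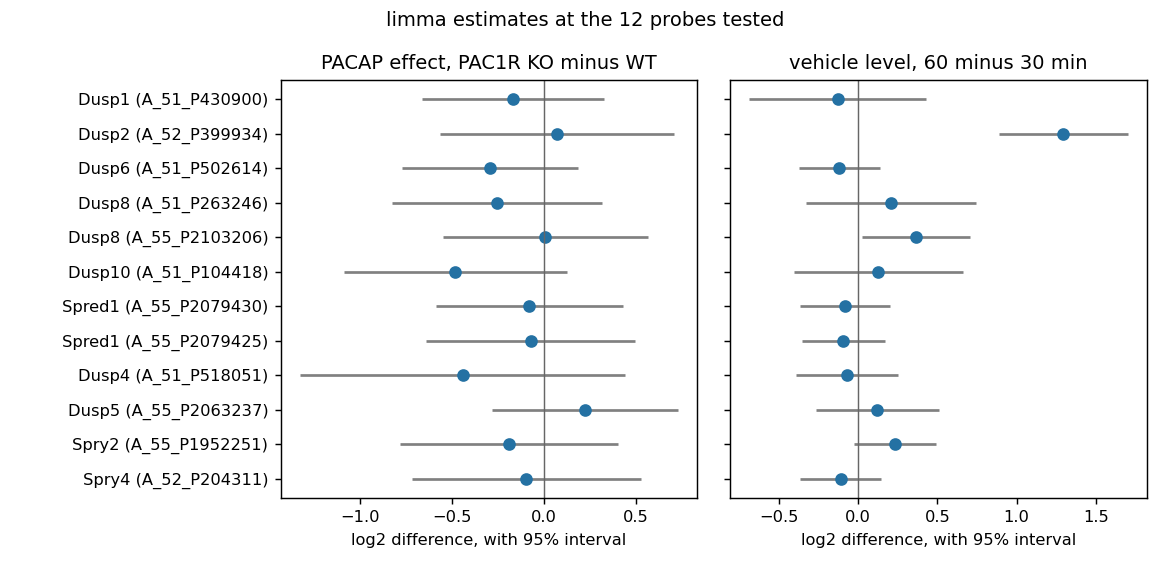
limma estimates (points) with 95% intervals not adjusted for the number of probes (lines), for the 12 member probes tested. The left panel is the PACAP effect in PAC1R KO minus that in WT and the right panel the vehicle level at 60 min minus 30 min, both on the log2 scale. Every interval on the left includes 0, and on the right those of Dusp2 and of Dusp8 at A_55_P2103206 do not.

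Of the 7 remaining MAP kinase phosphatase, Sprouty and Spred genes 0 were called higher or lower in each comparison. The same count of 0 in each comparison held for 8 atypical dual-specificity phosphatases, 23 genes of the ERK cascade, 16 of the JNK and p38 cascades, 11 output genes of ERK, 9 immediate early genes and 10 other inhibitors of RAS and ERK. With 0.292% to 0.708% of all probes called, these counts do not set the lists apart from other genes. The median for the ERK cascade was 0.09 on the log2 scale in WT30, with 17 of 23 genes above 0, and -0.26 in KO30, with 2 above 0. The JNK and p38 cascades had 0.16, with 11 of 16 above 0, and -0.27, with 1 above 0.

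The output genes of ERK had a median of 0.19 in WT30, with 9 of 11 above 0, and -0.19 in KO30, with 3 above 0. The other inhibitors had 0.24, with 6 of 10 above 0, and -0.28, with 3 above 0. The remaining phosphatase, Sprouty and Spred genes had 0.00 and -0.29, where Spry3 and Spred3 were above background on both arrays in 0 of 8 samples and had ratios of exactly 0 in WT30 and KO30, and the atypical phosphatases -0.24 and -0.01. At 60 min all of these medians lay between -0.12 and 0.11. Medians above 0 in WT30 and below 0 in KO30 were also those of the keratinocyte (0.18 and -0.72), fibroblast and muscle markers, and their part in these lists was not tested.

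The immediate early genes, which are transcribed first after MAP kinase or cyclic AMP signalling, had the highest median of these lists, at 0.58 in WT30 with 6 of 9 genes above 0. The list stood at 0.12 for KO30, -0.18 for WT60 and 0.11 for KO60. The transcription factor genes Egr1, Fos, Fosb and Atf3, named after their values were seen, were 1.94-fold, 1.86-fold, 1.82-fold and 1.78-fold in WT30, below the 2.0-fold threshold. In KO30 they were 0.93-fold, 1.16-fold, 1.24-fold and 1.28-fold. Their log2 levels with vehicle were 11.69, 11.59, 9.16 and 8.75 in WT30 and 12.52, 12.36, 9.45 and 9.14 in KO30. With PACAP they stood at 12.64, 12.47, 9.99 and 9.46 in WT30 and 12.43, 12.58, 9.78 and 9.52 in KO30. Junb, Ier2 and Egr3 of the same list were 0.92-fold, 0.91-fold and 0.85-fold in WT30, and Egr3 was dim. Dusp1, itself an immediate early gene, stood at 1.14-fold in WT30.

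**Figure D5:**
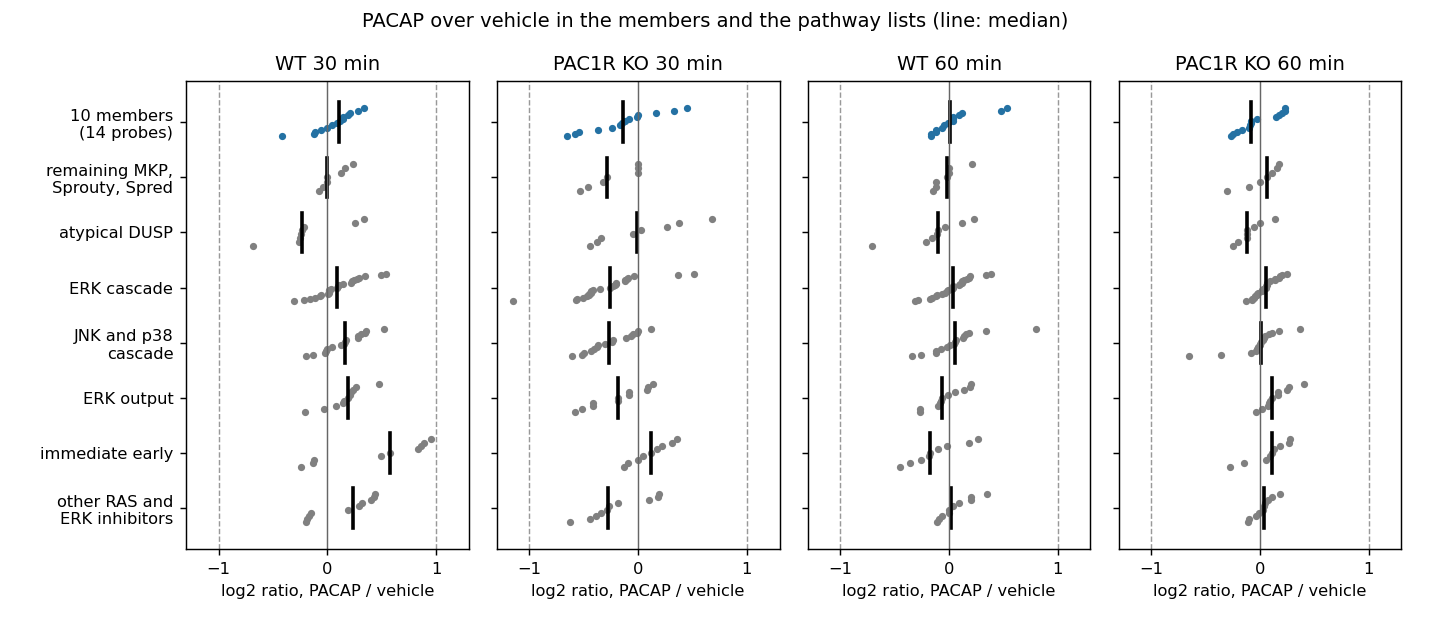
Mean log2 ratio of PACAP over vehicle (x axis) for the 14 member probes and for the brightest probe of each gene of the 7 pathway lists (y axis), in the 4 comparisons. Points are probes, black lines medians and dashed lines 2.0-fold and 0.5-fold. The immediate early list has the highest median, 0.58 in WT30, and no list has a called gene, although 1 dim gene of the ERK cascade lies below the lower line in KO30.

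The probes whose log2 levels followed Dusp1 and Dusp6 most closely over the 8 RNA samples were other genes than the members. For Dusp1 they were Hexdc, Depp1, Mymx, Depdc7 and Calr3, with Pearson r between 0.96 and 0.98 among 20277 probes. For Dusp6 they were Zfp120, Atrip, ENSMUST00000222602.1, Orc4 and Kansl1l, with r between 0.96 and 0.97. Dusp1 and Dusp6 had r = 0.56 with each other, and Dusp2 had r = -0.49 with Dusp1 and -0.54 with Dusp6. The samples share arrays in pairs, and with 8 points and this many probes these values describe these samples only.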

How the data were processed

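Total RNA of paw skin was hybridised to 8 Agilent mouse whole-genome arrays, with PACAP and vehicle RNA in the Cy3 and Cy5 channels and a dye swap for each pair. The authors extracted the scans with Feature Extraction (12.0.3.1 in the file headers, 11.0.1.1 in the submitters' processing notes, and a different version in the methods of the study). The deposited log10 ratio of red over green was background-corrected and dye-normalized by that software, and the deposited p-value per spot comes from its error model. The deposited intensity values are mean signals, local backgrounds and processed signals of each channel, beside deposited flags for background, saturation and outliers. The authors' series matrix holds log10 values of processed red over green, equal to those of the scanner files within 5e-10, and differs only where the software had set a ratio to 0. There were 0 saturated spots, and 1377 control spots were left out, as were spots marked as outliers (between 198 and 342 per array, 0 of them of the members).

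Ratios were turned to PACAP over vehicle, put on the log2 scale, and averaged first per probe and then over the swapped arrays. Levels were log2 intensities after normexp (offset 50), loess and Aquantile. limma 3.58.1 in R 4.3.3 (lmFit, eBayes, Benjamini-Hochberg over all probes tested) was run on 30351 probes above background in at least 1 channel of every array. For vehicle levels it was run on 24903 probes above background on both arrays of at least 1 vehicle sample. Python 3.11.15, numpy 2.4.6, pandas 2.3.3 and matplotlib 3.10.9 were used. The counting rule and the fits were tested on simulated data.

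The 10 genes, the pathway and marker lists and the tests were chosen with earlier results of these data known. Named were all members with every probe, pathway genes past the thresholds (there were 0), Egr1, Fos, Fosb and Atf3 (chosen after their values were seen), marker genes of lists that moved, and the 5 probes most correlated with Dusp1 and with Dusp6. Also named were Adcyap1r1, the immediate early genes Junb, Ier2 and Egr3, and list genes that were dim or stood in a count, such as Cftr, Spry3 and Spred3. The array number within a pair is the dye orientation: deviations of same-numbered arrays from their group means correlated between 0.765 and 0.86 over 20278 probes in 6 pairs, which is shared dye and not shared animals. Alternatives were 1.5-fold, no p, normexp and loess, median centring, outlier spots kept, the series matrix, filters on dim probes, other level normalizations, covariates, single arrays with a replicate block, and leaving out each array or sample. Promoters are RefSeq windows of GRCm38.p6, and probe coordinates are mm9 as the files give them. Exon or UTR annotation of probes was not used here.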

Additional observations from a re-analysis of the deposited data

Results flagged for a closer look

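PACAP over vehicle lay on opposite sides of 0 at both times, or in both genotypes, for 5 member probes. Dusp6 (A_51_P502614) was above 0 in WT and below 0 in KO at both times, and limma gave -0.29 for KO minus WT (SE 0.20, adjusted p = 0.84), with 5.3% of 30351 probes showing that split. Dusp2 (A_52_P399934) and Dusp8 (A_55_P2103206) were above 0 at 30 min and below 0 at 60 min in both genotypes, with limma estimates for 60 minus 30 min of -0.43 (SE 0.21) and -0.32 (SE 0.20), beside 2.32% of probes. Dusp4 (A_51_P518051) and Spry4 (A_52_P204311) were below 0 at 30 min and above 0 at 60 min in both genotypes, with estimates of 0.75 (SE 0.28) and 0.39 (SE 0.21), beside 4.61% of probes, and both probes were dim. After normexp background correction and loess the log2 ratios of Spry4 were -0.01 in WT30, -0.12 in KO30, 0.04 in WT60 and 0.02 in KO60. The 4 estimates between times had an adjusted p of 1 in limma, so none of the 5 differences passed.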

How the results depend on the processing

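The counts of called members stayed at 0 in all 4 comparisons at 1.5-fold, without the Feature Extraction p, after normexp and loess, after median centring, with outlier spots kept and with the series matrix ratios. With 1 array alone the count was 1 in KO at 30 min whichever array was left out (the dim Dusp1 probe without replicate 1, Spry2 without replicate 2), 0 to 1 in WT at 60 min and 0 elsewhere, beside 1.13% to 3.04% of all probes. At any fold with the Feature Extraction p, chosen after seeing the data, it was 1 in KO at 30 min (Dusp8) and 0 elsewhere. With single arrays and the replicate block the limma counts stayed at 0 for the mean of the comparisons, KO minus WT and 60 minus 30 min (708, 1440 and 202 probes unadjusted, correlation within pairs 0.757, 0.724 and 0.767), and the block made no call of a member. Leaving out each comparison or vehicle sample gave 0 to 1 probes for the mean, 0 to 170 for KO minus WT, 0 to 18 for 60 minus 30 min, 0 to 222 for the vehicle level between times and 0 to 62 between genotypes. A time covariate gave 17 probes for KO minus WT and a genotype covariate 2 for 60 minus 30 min. Of the member estimates given above, only Dusp2 in the vehicle samples passed anywhere (1.46 without the WT60 vehicle sample, adjusted p 0.0146 in limma, 1.12 to 1.46 over all its alternatives with adjusted p up to 0.321). The mean of Dusp1 turned from -0.012 to 0.0061 with median centring, and ran from -0.078 to 0.038 with 1 comparison left out (above 0 without KO30). That of Dusp6 ran from -0.037 (without WT30) to 0.098, and that of Dusp8 at A_51_P263246 from -0.27 to -0.09 over all its alternatives. The Dusp1 vehicle difference between times ran from -0.45 to 0.19 (without the KO60 vehicle sample). Over all alternatives the PACAP effect in KO minus WT ran from -0.50 to -0.01 for Dusp8 (A_51_P263246), from -0.70 to -0.26 for Dusp10 and from -0.39 to -0.20 for Dusp6, and the vehicle level of KO minus WT from -0.60 to -0.16 for Dusp8 and from 0.17 to 0.55 for Dusp10, with 0 calls. For Dusp8 at A_55_P2103206 the vehicle level at 60 minus 30 min ran from 0.22 to 0.68 over all alternatives. Its PACAP effect at 60 minus 30 min ran from -0.35 to -0.15. The causes were not tested. Without Aquantile the median of all probes for the vehicle level of KO minus WT was 0.17 and not 0.01. Single mean ratios moved by more than the SD between their arrays in 35 of 224 alternatives. The probes of Dusp4, Dusp5, Spry2 and Spry4 were not well above background in every sample.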
